A study of Mus musculus with 10 samples.

Results

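The mRNAs of 10 genes of iron handling in liver were followed: both mouse hepcidin genes (Hamp and Hamp2), the bone morphogenetic protein gene Bmp6, the sensors Hfe and Tfr2, the transferrin receptor gene Tfrc, transferrin (Trf), ferroportin (Slc40a1) and the ferritin chains Fth1 and Ftl1. They are the rows of the deposited expression table that carry these symbols, 10 of its 19414 genes. Liver RNA of 10 female HET3 mice was measured by poly-A selected bulk RNA sequencing. HET3 is a stock from a cross of several inbred strains, so that each mouse differs from the next in genotype. 5 mice were fed the Longevity diet and 5 a standard diet, both for 5 months. Mice of both diets are labelled as 25 months old, and the labels leave unsaid whether feeding began or ended at that age. The composition of either diet is not given in the sources used here beyond the methionine supplement named in the title of the series, and no other allele or agent is named for either group. Mice are named by diet and number, LD for the Longevity diet and SD for the standard diet. Each mouse is 1 library.

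Hepcidin is the hormone with which the liver holds down iron entry into plasma: it binds the iron exporter ferroportin on macrophages, hepatocytes and gut cells and causes its degradation. Hepatocytes make more hepcidin mRNA when iron is plentiful, through bone morphogenetic proteins from sinusoidal endothelial cells, the co-receptor hemojuvelin and SMAD proteins, and in inflammation, through interleukin-6 and STAT3. Inside the cell, iron regulatory proteins bind hairpins in mRNA when iron is scarce, which stabilises the transferrin receptor mRNA and blocks translation of the ferritin mRNAs.

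All levels are in CPM, reads of a gene per 1000000 reads assigned to any gene of the table. Depth was 30.0 ± 6.47 M reads per library on the Longevity diet and 42.5 ± 4.35 M on the standard diet (mean ± SD, n = 5 each, M is 1000000 reads). At the lowest depth, 24.7 M, 3 reads correspond to 0.121 CPM, a floor that covers counting error only. A gene is said to have risen or fallen when its limma adjusted p over the 13157 genes tested was under 0.05. Of these genes 1.89% changed, with 0.661% higher and 1.23% lower in mice on the Longevity diet. The median log2 change over all of them was -0.11. That median moved by 0.10 under median-of-ratios scaling and by 0.11 under quantile normalization, with 151 genes higher and 138 lower under the first and 151 higher and 148 lower under the second, against 87 and 162 in CPM. The library of LD_405 stood apart: it had the lowest of the 10 values in 37.1% of the genes, and in a fit with 1 weight per library its weight was 0.192, against 0.684 to 2.91 in the other mice. LD_515 had the lowest value in 11.5% of the genes and the highest in 2.85%. Hepatocyte markers were present in every library, with summed levels of 147040 to 202130 CPM on the Longevity diet and 100310 to 148590 CPM on the standard diet. Their mean log2 levels overlapped, at 11.476 to 11.591 on the Longevity diet and 11.479 to 11.795 on the standard diet. The median log2 change of these 10 markers was -0.0073, with 4 above 0 and 6 below. No marker of the 9 cell type lists was at 0 in every mouse.

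All 10 genes passed the filter on low values, and 0 of 10 passed the adjusted test, beside a background of 1.89%. With an unadjusted p under 0.05 there were 4 of 10, beside 17.5% of all genes. Of these, 3 were lower, Hamp2, Hfe and Slc40a1, beside 11.6% of all genes, and 1, Tfrc, was higher, beside 5.92%. These shares are also the ones to set beside the counts of the gene lists further on. For 2 of the 10 no value of one diet reached into the range of the other, beside 5.50% of all genes. These were Hamp2 and Hfe, both lower on the Longevity diet, beside 3.49% of all genes. The median log2 change of the 10 genes was -0.23.

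**Figure D1:**
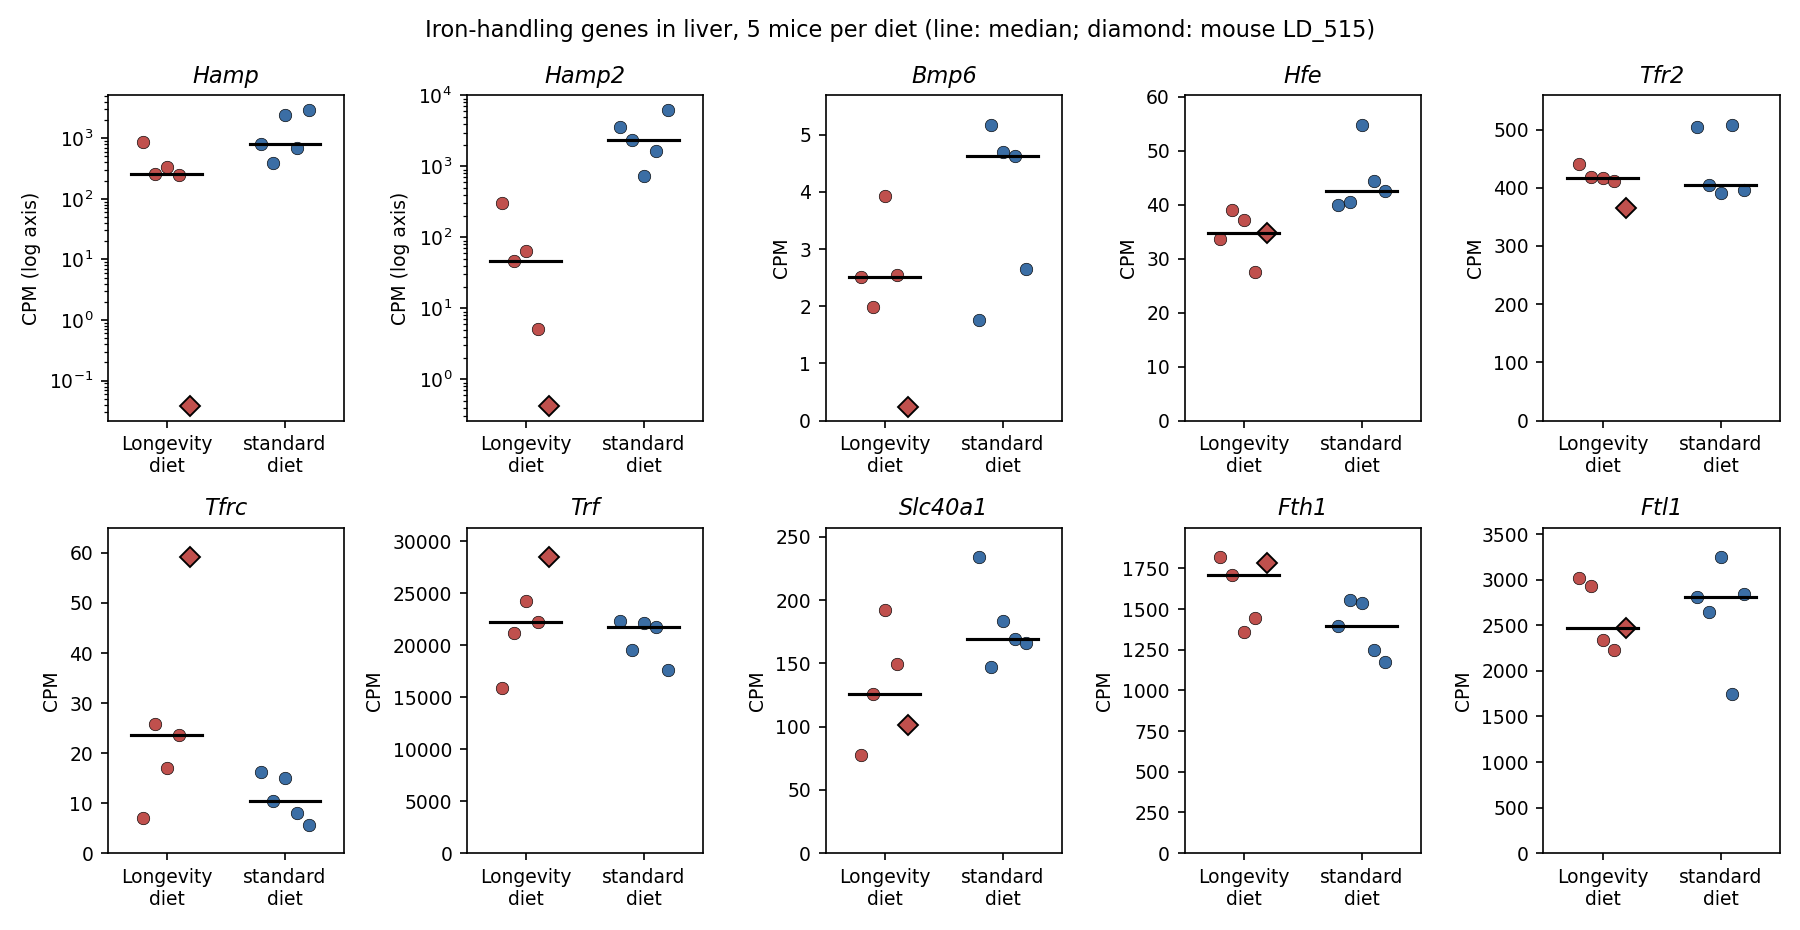
CPM of the 10 genes in each liver, with the Longevity diet on the left and the standard diet on the right of each panel. Points are mice, lines are medians of 5 mice, the diamond is LD_515, and the panels of Hamp and Hamp2 have log axes. All 5 Longevity diet values of Hamp2 (0.423 to 309 CPM) lie below the 5 standard diet values (722 to 6212 CPM).

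Hamp2 showed the widest gap between the diets among the 10 genes. It encodes the second mouse hepcidin, a copy of Hamp that humans lack and whose peptide has no settled part in iron balance. Hamp2 (chr7:30621797-30624106 on mm39, minus strand) had 309, 45.9, 65.1, 5.04 and 0.423 CPM in LD_405, LD_406, LD_442, LD_513 and LD_515, against 3607, 2327, 722, 1626 and 6212 CPM in SD_403, SD_500, SD_501, SD_502 and SD_646. Every Longevity diet mouse lay below every standard diet mouse, and the value of LD_515 amounts to about 11 reads. The median was 45.9 CPM on the Longevity diet and 2327 CPM on the standard diet, 50.7-fold lower. The log2 change was -6.90 with an SE of 1.56 (95% interval -10.4 to -3.39), with a limma adjusted p of 0.0649. The two-sided exact permutation p for this gene alone was 0.00794, the smallest that 5 against 5 mice allow. Hamp2 passed the adjusted threshold in 7 of 24 alternative analyses, with log2 changes of -8.00 to -5.60 and adjusted p of 0.0199 to 0.260 over all of them. It passed without LD_405 (adjusted p = 0.0403) and without LD_515 (adjusted p = 0.0499). SD_403 and SD_646, the pair of mice with the most Hamp2, also had the highest summed level of neutrophil and monocyte markers, 141 and 104 CPM, against 7.60 to 26.1 CPM in the other standard diet mice and 3.87 to 13.4 CPM on the Longevity diet. Of the 8 such markers tested, 5 passed the filter on low values only through the standard diet mice. Without SD_403 and SD_646, the log2 change of Hamp2 was -6.20 with a limma adjusted p of 0.260. In that fit 15 genes of all those tested were higher and 18 lower, against 87 and 162 with all mice. The part of neutrophils and monocytes in the values of Hamp2 was not tested.

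Hamp encodes the hepcidin that governs plasma iron. Hamp (chr7:30641793-30643457, minus strand) had 859, 255, 334, 247 and 0.0385 CPM in LD_405, LD_406, LD_442, LD_513 and LD_515, against 803, 391, 2443, 676 and 2906 CPM in SD_403, SD_500, SD_501, SD_502 and SD_646. 4 of 5 Longevity diet mice lay below every standard diet mouse, while LD_405 lay above 3 of them. LD_515 had about 1 read, below its floor of 0.115 CPM. The log2 change of Hamp was -3.84 with an SE of 2.22 and a limma adjusted p of 0.408, and the exact permutation p was 0.0397 for this gene alone. That size rests on LD_515: without it the log2 change was -1.56, with an adjusted p of 0.235. Fewer cells of a type and less RNA per cell cannot be told apart in bulk liver, here or in the results that follow.

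The proportion of the hepcidins to each other also varied between mice. Both together gave 1168, 301, 399, 253 and 0.462 CPM in LD_405, LD_406, LD_442, LD_513 and LD_515, and 2302 to 9118 CPM in the 5 standard diet mice. Hamp2 made up 26.5%, 15.2%, 16.3%, 1.99% and 91.7% of that sum in the same Longevity diet mice, against 81.8%, 85.6%, 22.8%, 70.6% and 68.1% in SD_403, SD_500, SD_501, SD_502 and SD_646. Hamp was thus the more abundant in 4 Longevity diet mice and in 1 standard diet mouse, SD_501. The share in LD_515 comes from about 12 reads. The log2 ratio of Hamp2 to Hamp averaged -1.996 ± 2.69 on the Longevity diet and 1.07 ± 1.70 on the standard diet (SD, n = 5 each), a difference of -3.06 (two-sided exact permutation p = 0.0873, adjusted p = 0.183 over the 3 ratios tested here). Without LD_515 the difference was -4.04 with an unadjusted exact p of 0.0238. Without SD_501 it was -3.77 with an unadjusted exact p of 0.0317. With any other mouse left out alone, the unadjusted exact p was 0.0873 to 0.127. The transcripts are 92.4% identical, and the longest stretch without a difference is 87 bases. Of the 50-base windows of the Hamp transcript, 16.6% are also found in that of Hamp2, so reads could have been split between them in a way that the files do not show.

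**Figure D2:**
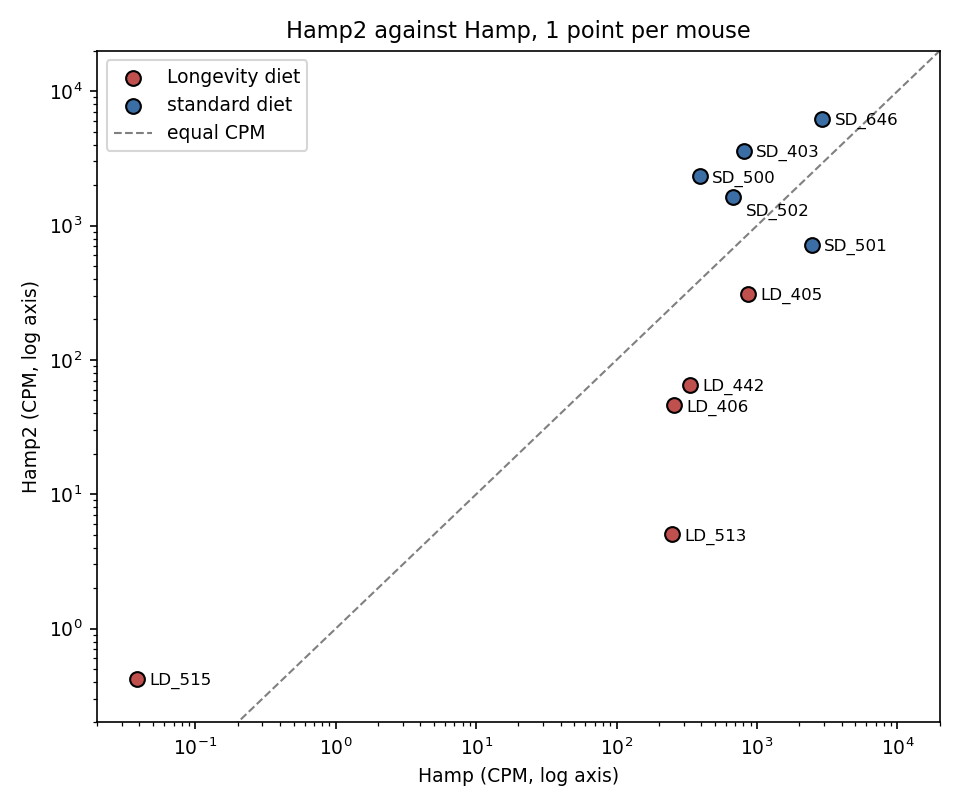
Hamp2 against Hamp in CPM, both on log axes, 1 point per mouse. The standard diet mice, except SD_501, lie above the line of equal CPM, the Longevity diet mice, except LD_515, lie below it, and LD_515 lies near the bottom left corner with 0.0385 CPM of Hamp.

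The promoters of the hepcidins are shown because BMP and STAT3 signals act on Hamp through short elements in this stretch, and the genes differ in one of these. The 150 bases before the RefSeq start sites (GRCm38.p6, written 5′ to 3′ on the minus strand, Hamp chr7:30944030-30944179, Hamp2 chr7:30924182-30924331) are 88.2% identical. Capitals mark the place of the BMP-responsive element (GGCGCC) and, after it, the STAT motif (TTCNNNGAA).
Hamp: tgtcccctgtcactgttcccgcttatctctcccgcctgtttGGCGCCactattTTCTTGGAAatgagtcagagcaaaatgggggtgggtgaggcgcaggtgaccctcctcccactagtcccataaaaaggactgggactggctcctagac
Hamp2: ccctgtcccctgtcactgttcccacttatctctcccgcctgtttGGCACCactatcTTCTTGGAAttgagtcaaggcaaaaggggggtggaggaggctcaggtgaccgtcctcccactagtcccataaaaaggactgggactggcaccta
Hamp holds GGCGCC starting 109 bases before its start site and TTCTTGGAA starting 97 bases before it. Hamp2 holds the STAT motif 94 bases before its start site, and at the place of the first motif, 106 bases before it, reads GGCACC, the substitution G4A counted from 1 at the 5′ end of GGCGCC, with the Hamp base first. Both motifs equal their own reverse complement, so the search of 1 strand covers both strands. Of 32851 RefSeq promoter windows of 250 bases, 9.59% hold GGCGCC, 7.02% hold TTCNNNGAA and 0.368% hold both. Promoter windows were matched for 8 of the 10 genes, not for Trf and Slc40a1, and beside Hamp only 1 window of Tfrc held GGCGCC.

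Bmp6 was the least abundant of the 10 genes. Bmp6, the ligand that rises with liver iron (chr13:38529083-38684278, plus strand), had 2.51, 1.98, 3.93, 2.55 and 0.231 CPM in LD_405, LD_406, LD_442, LD_513 and LD_515, against 1.75, 5.17, 4.69, 4.63 and 2.66 CPM in SD_403, SD_500, SD_501, SD_502 and SD_646. The diets overlapped, and LD_515, with about 6 reads, stood far below the rest. The log2 change was -0.999 with an SE of 0.589 and a limma adjusted p of 0.402, and without LD_515 it was -0.39. The summed level of 16 sinusoidal endothelial markers, the cells known as the main source of Bmp6, was 244 to 558 CPM on the Longevity diet, lowest in LD_515, and 556 to 721 CPM on the standard diet. One of these, Lyve1, passed the filter on low values only through the standard diet mice. All of the other 15 had log2 changes below 0, 10 with an unadjusted p under 0.05, beside 11.6% of all genes, and 0 of 15 passed the adjusted test of limma. Their median log2 change was -0.68, beside -0.11 over all genes. The part of these cells in the values of Bmp6 was not tested.

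Hfe and Tfr2 encode proteins of the hepatocyte surface through which transferrin-bound iron raises hepcidin. Hfe (chr13:23886017-23894837, minus strand) had 33.7, 39.1, 37.1, 27.6 and 34.7 CPM in LD_405, LD_406, LD_442, LD_513 and LD_515, against 40.0, 40.4, 54.8, 44.4 and 42.5 CPM in SD_403, SD_500, SD_501, SD_502 and SD_646. The diets did not overlap, but the highest Longevity diet value and the lowest standard diet value, 39.1 and 40.0 CPM, were close. The log2 change of Hfe was -0.37 with an SE of 0.168 and a limma adjusted p of 0.278, and the exact permutation p was 0.00794 for this gene alone. Over the 24 alternatives it kept its direction, with log2 changes of -0.44 to -0.26 and adjusted p of 0.198 to 0.535. Tfr2 (chr5:137568102-137585743, plus strand) varied little, with 441.6, 419, 416, 411 and 365 CPM in LD_405, LD_406, LD_442, LD_513 and LD_515, against 503.8, 404, 392, 508 and 396 CPM in SD_403, SD_500, SD_501, SD_502 and SD_646. The diets overlapped, with LD_515 lowest, and the log2 change of Tfr2 was -0.09 (95% interval -0.42 to 0.23, limma adjusted p = 0.774). It turned to 0.01 under median-of-ratios scaling.

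Of 23 other tested genes of the BMP and SMAD pathway, Id4 passed the filter on low values only through the standard diet mice and is left out of the counts. Among the 22 others, 0 rose, beside 0.661% of all genes, and 1 fell, Hjv, beside 1.23%. At an unadjusted p under 0.05, 0 were higher and 8 lower, beside 5.92% and 11.6% of all genes. Their median log2 change was -0.42, beside -0.11 over all genes, and 20 of 22 lay below 0. Markers of some, not all, non-hepatocyte cells were lower in the same mice. The 15 endothelial markers given with Bmp6 had a median log2 change of -0.68. For 14 markers of stellate cells and fibroblasts it was -0.81, with 13 of 14 below 0, 9 lower at an unadjusted p under 0.05 and 2 fallen. For 6 tested erythroid markers it was 0.07, with 2 of 6 below 0. Summed, the stellate cell markers gave 388 to 626 CPM on the Longevity diet and 618 to 897 CPM on the standard diet. The part of these cells in the values of the BMP and SMAD genes was not tested. Hjv encodes hemojuvelin, the co-receptor through which bone morphogenetic proteins raise hepcidin in hepatocytes. Hjv had 49.0, 39.3, 38.6, 34.0 and 32.9 CPM in LD_405, LD_406, LD_442, LD_513 and LD_515, against 97.9, 84.4, 72.2, 69.6 and 74.4 CPM in SD_403, SD_500, SD_501, SD_502 and SD_646. The diets were well apart, the log2 change was -1.04 with an SE of 0.173 and a limma adjusted p of 0.0114, and the gene passed in 22 of 24 alternatives. Id4, a target of SMAD signalling in many cells, averaged 0.557 ± 0.117 CPM on the Longevity diet and 2.51 ± 1.11 CPM on the standard diet (SD, n = 5 each, log2 change -1.90), given as a description because of how it entered the test. The next by p did not pass: the ligand gene Bmp5 averaged 5.26 ± 1.84 CPM in LD mice and 10.6 ± 2.91 CPM in SD mice (adjusted p = 0.0887), and Atoh8, a transcription factor gene that responds to BMP in liver, 9.95 ± 3.79 CPM in LD mice and 24.7 ± 10.7 CPM in SD mice (adjusted p = 0.0932). LD_405 had the lowest of the 10 values in 12 of the 23 genes and LD_515 in 8, among them Hjv, Id1, Id3, Smad6, Smad7 and Atoh8. Without both mice, the median log2 change of the 23 genes was -0.15, beside 0.01 over all genes, and with Id4 counted 1 gene fell. That number was 2 in all mice, 1 without LD_406, LD_515, SD_500, SD_501 or SD_646 alone, 3 without LD_442, and 0 without LD_406 and LD_515 together or SD_403 and SD_646 together.

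**Figure D3:**
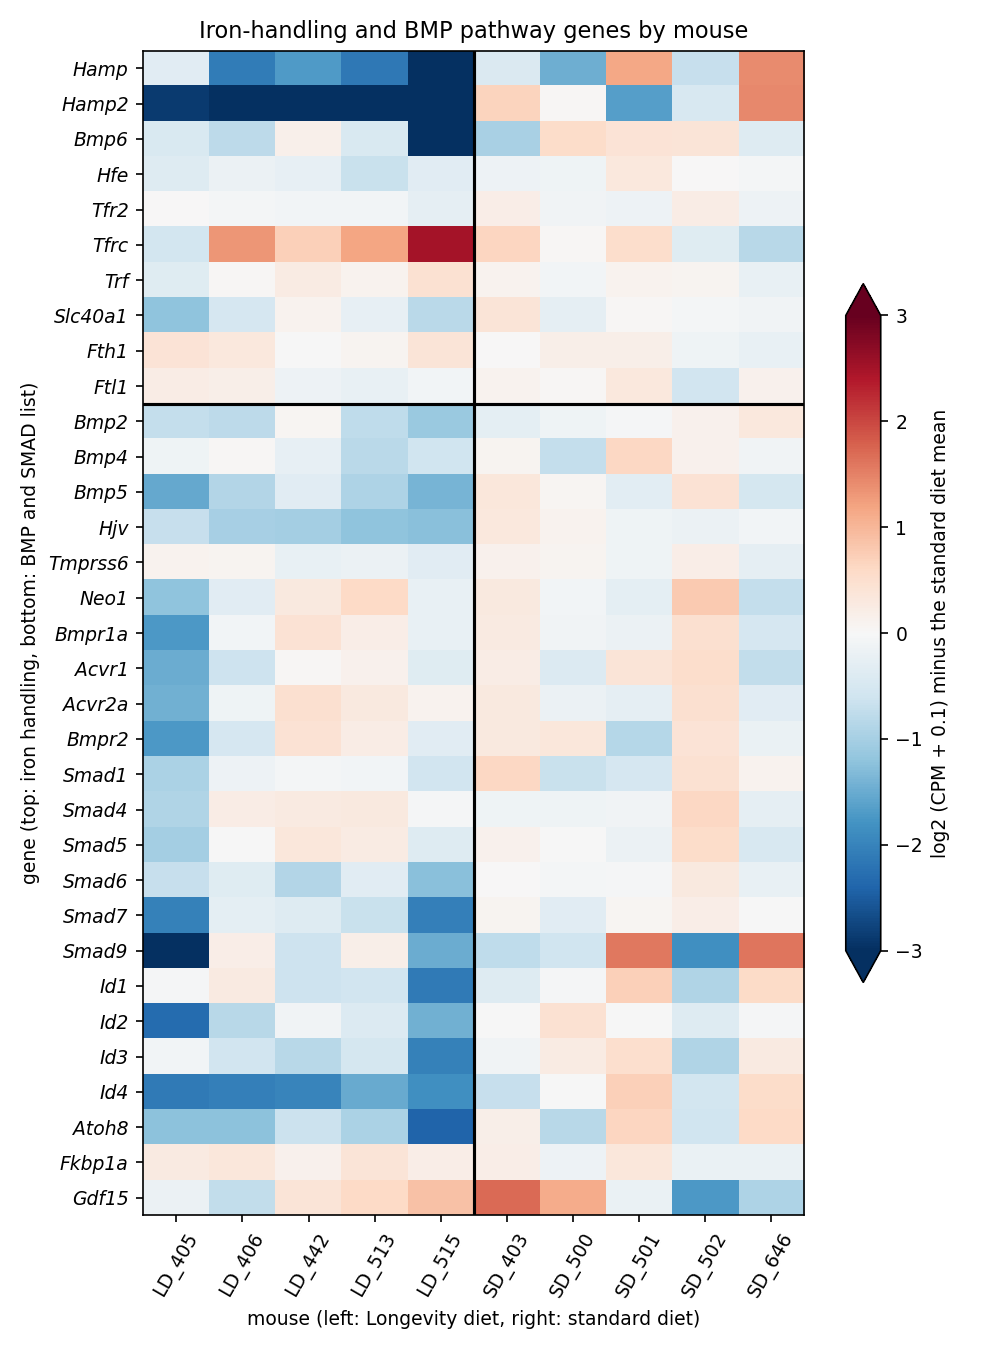
Level of each iron-handling gene (top) and each of the 23 BMP and SMAD genes (bottom) in each mouse, as log2(CPM + 0.1) minus the standard diet mean, Longevity diet mice on the left and colours capped at 3. Hamp2, Hjv and Id4 are below the standard diet mean in all 5 Longevity diet mice, Tfrc is highest in LD_515, and LD_405 and LD_515 hold most of the lowest values of the lower block.

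The interleukin-6 and STAT3 genes tested showed no change that passed: 0 rose and 0 fell of 14 tested by limma. Il6 itself lay below the filter on low values and was not tested. Of the 14 genes, 2 were higher and 3 lower at an unadjusted p under 0.05, beside 5.92% and 11.6% of all genes. Their median log2 change was 0.31. Without LD_442, 1 gene fell, and in 1 of 24 alternatives, with no single mouse left out, 1 gene rose. The 4 with the smallest p were the kinase gene Jak2 (9.01 ± 2.58 CPM on the Longevity diet and 13.3 ± 1.41 CPM on the standard diet, adjusted p = 0.207), the cytokine gene Il1b (2.81 ± 3.70 CPM in LD mice and 4.64 ± 0.708 CPM in SD mice, adjusted p = 0.216), Creb3l3, a liver transcription factor gene that acts on the hepcidin promoter (357 ± 71.8 CPM in LD mice and 251 ± 82.9 CPM in SD mice, adjusted p = 0.234), and Il6st, the shared receptor chain (88.2 ± 31.3 CPM in LD mice and 130 ± 29.3 CPM in SD mice, adjusted p = 0.239). The same cytokines raise acute phase genes in hepatocytes, most of which encode plasma proteins. The list of these also holds the metallothionein genes Mt1 and Mt2, which do not encode plasma proteins. Of 24 genes of this list tested, Orm3 passed the filter on low values only through the standard diet mice and is left out of the counts. Of the 23 others 0 rose and 4 fell, beside 0.661% and 1.23% of all genes, and 0 were higher and 11 lower at an unadjusted p under 0.05, beside 5.92% and 11.6%. Their median log2 change was -0.49, beside -0.11 over all genes. The orosomucoid genes encode a plasma carrier protein: Orm1 had 16.0 to 259 CPM on the Longevity diet and 509 to 1168 CPM on the standard diet (adjusted p = 0.0216), Orm2 0.846 to 7.52 CPM in LD mice and 13.3 to 67.1 CPM in SD mice (adjusted p = 0.0108), and Orm3, as a description, 0 to 0.731 CPM in LD mice and 1.08 to 24.3 CPM in SD mice. The Orm genes are related copies that may share reads, and their sequences were not compared here. Mt1, a metallothionein gene, fell as well (267 ± 118 CPM in LD mice and 770 ± 306 CPM in SD mice, adjusted p = 0.0262), and the remaining one was Lcn2, given below with iron capture and neutrophil markers. With Orm3 counted the number fallen was 5 in all mice, 1 without LD_406 or SD_403, 3 without SD_500, SD_501 or SD_646, and 0 without SD_403 and SD_646 together or LD_406 and LD_515 together.

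Uptake of transferrin-bound iron was represented by the carrier Trf and its receptor Tfrc. Tfrc encodes transferrin receptor 1, which carries iron-laden transferrin into cells (chr16:32427738-32451612, plus strand). Tfrc had 6.96, 25.9, 17.01, 23.5 and 59.1 CPM in LD_405, LD_406, LD_442, LD_513 and LD_515, against 16.3, 10.5, 15.0, 7.99 and 5.71 CPM in SD_403, SD_500, SD_501, SD_502 and SD_646. 4 of 5 Longevity diet mice lay above every standard diet mouse, and LD_405 was second lowest of the 10. The mouse with the least Hamp, LD_515, had the most Tfrc, and the one with the most Hamp, SD_646, had the least Tfrc. The log2 change was 1.03 with an SE of 0.466, a limma adjusted p of 0.273 and an exact permutation p of 0.103. Without LD_405 it was 1.43 (adjusted p = 0.0646), and without LD_515 it was 0.66 (adjusted p = 0.478). Trf, a main plasma protein of hepatocytes (chr9:103081200-103107643, minus strand), had 15907, 21159, 24288, 22210 and 28439 CPM in LD_405, LD_406, LD_442, LD_513 and LD_515, against 22315, 19520, 22157, 21761 and 17600 CPM in SD_403, SD_500, SD_501, SD_502 and SD_646. The Longevity diet values spread on both sides of the standard diet values, with a log2 change of 0.10 (95% interval -0.27 to 0.46, limma adjusted p = 0.800).

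Slc40a1 encodes ferroportin, the one known cellular iron exporter and the target of hepcidin (chr1:45947228-45965683, minus strand). Slc40a1 had 77.3, 126, 192, 150 and 101 CPM in LD_405, LD_406, LD_442, LD_513 and LD_515, against 234, 147, 183, 169 and 166 CPM in SD_403, SD_500, SD_501, SD_502 and SD_646. 3 Longevity diet mice lay below every standard diet mouse, and LD_442 lay above 4 of them. The log2 change was -0.53 with an SE of 0.236, a limma adjusted p of 0.268 and an exact permutation p of 0.0794. Without LD_405 it was -0.36. Macrophages are rich in ferroportin, and the summed level of 15 Kupffer cell and macrophage markers was 279 to 928 CPM on the Longevity diet and 541 to 898 CPM on the standard diet. Of these markers 14 of 15 had log2 changes below 0, 2 with an unadjusted p under 0.05, and 0 passed the adjusted test of limma. The 15 markers summed to 845, 279, 928, 390 and 292 CPM in LD_405, LD_406, LD_442, LD_513 and LD_515. In SD_403, SD_500, SD_501, SD_502 and SD_646 the sum was 898, 624, 875, 541 and 675 CPM. The part of macrophages in the values of Slc40a1 was not tested.

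**Figure D4:**
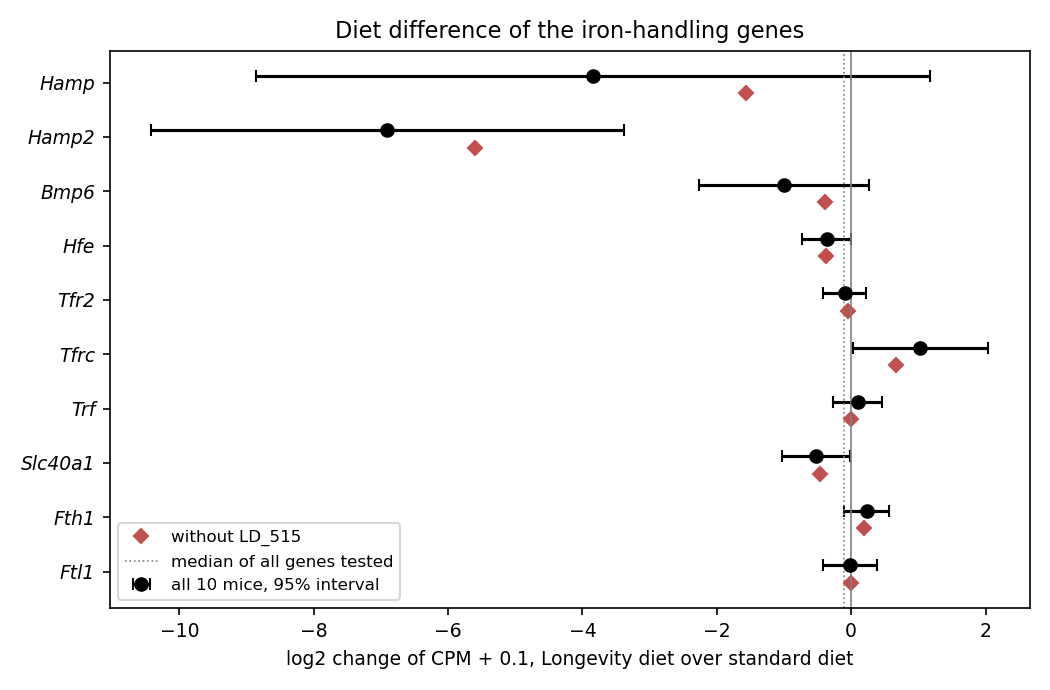
Log2 change of each gene on the scale of CPM + 0.1, Longevity diet over standard diet, with its 95% interval from 10 mice (black) and the same change without LD_515 (red diamonds). The dotted line is the median of all genes tested, -0.11. The intervals of Hamp2, Hfe, Tfrc and Slc40a1 leave out 0 before adjustment, and Hamp moves from -3.84 to -1.56 when LD_515 is left out.

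Among 22 other tested genes of iron and heme transport and capture, 0 rose and 2 fell, beside 0.661% and 1.23% of all genes, with a median log2 change of -0.02. At an unadjusted p under 0.05, 0 were higher and 4 lower. Lcn2 encodes lipocalin 2, which traps bacterial iron carriers and is also made by neutrophils. Lcn2 had 31.6, 9.10, 18.1, 36.2 and 8.93 CPM in LD_405, LD_406, LD_442, LD_513 and LD_515, against 113, 51.4, 62.6, 47.1 and 181 CPM in SD_403, SD_500, SD_501, SD_502 and SD_646 (log2 change -2.16, adjusted p = 0.0315). The diets did not overlap, and the highest values were those of SD_646 and SD_403, the mice with 104 and 141 CPM of summed neutrophil and monocyte markers. All 8 of these markers had log2 changes below 0, though 5 of 8 passed the filter on low values only through the standard diet mice. The part of these cells in the values of Lcn2, Steap4 and the acute phase genes was not tested. Steap4, a metalloreductase gene that also responds to inflammation, averaged 55.9 ± 27.2 CPM in LD mice and 130 ± 28.3 CPM in SD mice (log2 change -1.34, adjusted p = 0.0422). Slc39a8, a gene for an importer of iron, zinc and manganese (18.5 ± 4.97 CPM in LD mice and 28.4 ± 4.87 CPM in SD mice, adjusted p = 0.165), and Lrp1, a receptor gene for heme-laden hemopexin (395 ± 125 CPM in LD mice and 634 ± 265 CPM in SD mice, adjusted p = 0.238), did not pass. The number fallen was 0 without LD_406, LD_515, SD_403, SD_500, SD_501 or SD_646, each left out alone, and 1 without SD_502.

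Ferritin shells of heavy and light chains store iron in the cell, and the intervals of the diet difference spanned 0 for both chains. Fth1, the heavy chain with ferroxidase activity (chr19:9957962-9962462, plus strand), had 1817, 1707, 1362, 1445 and 1782 CPM in LD_405, LD_406, LD_442, LD_513 and LD_515, against 1394, 1556, 1540, 1247 and 1174 CPM in SD_403, SD_500, SD_501, SD_502 and SD_646. 3 Longevity diet mice lay above every standard diet mouse, and the log2 change of Fth1 was 0.23 (95% interval -0.10 to 0.57, limma adjusted p = 0.466, exact permutation p = 0.0794). Ftl1, the light chain (chr7:45107368-45109308, minus strand), had 3023, 2930, 2334, 2223 and 2466 CPM in LD_405, LD_406, LD_442, LD_513 and LD_515, against 2810, 2647, 3244, 1746 and 2840 CPM in SD_403, SD_500, SD_501, SD_502 and SD_646. The diets overlapped widely, with a log2 change of -0.02 (95% interval -0.41 to 0.38, limma adjusted p = 0.974) whose sign depended on the scaling and on single mice. Ferritin genes have processed pseudogenes in mice, and how reads shared with these were counted is not given in the sources used here. Among 8 other genes of iron storage, ferritin turnover and iron chaperones, 0 rose and 0 fell, 1 was lower at an unadjusted p under 0.05, and the median log2 change was 0.04, or 0.00038 without Pcbp3, which passed the filter on low values only through the Longevity diet mice. Without LD_405, 1 gene fell. The smallest p was that of Bdh2, which encodes an enzyme proposed to make a mammalian iron carrier (6.45 ± 2.18 CPM in LD mice and 11.3 ± 2.84 CPM in SD mice, adjusted p = 0.129). The next were genes of the poly-C binding iron chaperone family, Pcbp1 (161 ± 22.4 CPM in LD mice and 129 ± 19.7 CPM in SD mice, adjusted p = 0.354), Pcbp3 (1.57 ± 0.686 CPM in LD mice and 0.900 ± 0.857 CPM in SD mice, adjusted p = 0.386) and Pcbp4 (17.2 ± 2.43 CPM in LD mice and 21.3 ± 4.53 CPM in SD mice, adjusted p = 0.470).

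The hairpins that iron regulatory proteins bind are shown because they set Tfrc apart from the ferritins and ferroportin by their place in the mRNA. A search of GENCODE M21 transcripts (GRCm38) for C, 5 bases, CAGUGN and 5 bases that pair with those before the loop found them in 4 of the 10 genes. Each line gives 29 bases 5′ to 3′, with the loop in capitals.
Fth1 5′ UTR: uuccugcuucaaCAGUGCuugaacggaac
Ftl1 5′ UTR: gucuugcuucaaCAGUGUuugaacggaac
Slc40a1 5′ UTR: caacuucagcuaCAGUGUuagcuaaguuu
Tfrc 3′ UTR, 1: aauuaucggaagCAGUGCcuuccauaauu
Tfrc 3′ UTR, 2: cauuaucgggagCAGUGUcuuccauaaug
Tfrc 3′ UTR, 3: cuauaucggagaCAGUGAucuccauaugu
Tfrc 3′ UTR, 4: aauuaucgggaaCAGUGUuucccauaauu
Of 21877 genes with a coding transcript, 0.142% had such a match in a 5′ UTR and 0.590% in a 3′ UTR. The positions are chr19:9982732-9982760 for Fth1, chr7:45459779-45459807 for Ftl1, chr1:45925465-45925493 for Slc40a1, and chr16:32631219-32631247, chr16:32631598-32631626, chr16:32631663-32631691 and chr16:32631710-32631738 for Tfrc.

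The log2 ratio of Tfrc to Fth1, genes with the hairpin at opposite ends of the mRNA, averaged -6.24 ± 1.12 on the Longevity diet and -7.04 ± 0.497 on the standard diet (SD, n = 5 each), a difference of 0.80 (two-sided exact permutation p = 0.183). LD_515 had the highest ratio, -4.91, and LD_405 the lowest, -8.01. Without LD_405 the difference was 1.24 with an unadjusted exact p of 0.0159. With any other mouse left out alone, the unadjusted exact p was 0.159 to 0.365, the largest without LD_515 (difference 0.468). The log2 ratio of Ftl1 to Fth1 averaged 0.68 ± 0.13 on the Longevity diet and 0.92 ± 0.30 on the standard diet, a difference of -0.25 (exact p = 0.135, adjusted p = 0.183 over 3 ratios for this one and for Tfrc to Fth1). Without SD_502, which had the lowest ratio on the standard diet, the difference was -0.36 with an unadjusted exact p of 0.0238. For this ratio, leaving out any other mouse alone gave an unadjusted exact p of 0.111 to 0.278.

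Of 12 tested genes of the iron regulatory proteins and hypoxia sensing, 0 rose and 1 fell, beside 1.23% of all genes, with a median log2 change of -0.06. At an unadjusted p under 0.05, 1 was higher and 2 lower. Ndrg1, a gene that iron depletion and hypoxia raise in many cells, averaged 11.4 ± 4.61 CPM on the Longevity diet and 30.4 ± 7.85 CPM on the standard diet (log2 change -1.47, adjusted p = 0.0298). It did not pass without LD_406, LD_513, SD_403, SD_500 or SD_501, each left out alone. Ireb2, the gene of iron regulatory protein 2, averaged 35.9 ± 14.5 CPM in LD mice and 57.9 ± 6.64 CPM in SD mice (adjusted p = 0.216), with 11.01 CPM in LD_405. The prolyl hydroxylase gene Egln2 averaged 77.1 ± 16.9 CPM in LD mice and 54.97 ± 6.41 CPM in SD mice (adjusted p = 0.221), and Arnt, the partner gene of the hypoxia-inducible factors, 14.7 ± 5.88 CPM in LD mice and 20.6 ± 2.77 CPM in SD mice (adjusted p = 0.314).

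The genes that spend iron on heme and iron-sulfur clusters did not pass the test in either direction. Of 21 heme genes 0 rose and 0 fell, 5 were higher and 3 lower at an unadjusted p under 0.05, beside 5.92% and 11.6% of all genes, and the median log2 change was 0.13. The number risen was 1 without LD_442 or SD_502. Alas1, the rate-limiting enzyme of heme synthesis in liver, averaged 414 ± 198 CPM on the Longevity diet and 145 ± 88.0 CPM on the standard diet (log2 change 1.51, adjusted p = 0.105). It was followed by Cox10, an enzyme gene of heme A synthesis (16.96 ± 4.80 CPM in LD mice and 10.2 ± 1.73 CPM in SD mice, adjusted p = 0.131), Blvrb, biliverdin reductase B (156 ± 37.9 CPM in LD mice and 96.8 ± 30.0 CPM in SD mice, adjusted p = 0.147), and Alas2, the erythroid form of Alas1 (5.90 ± 1.496 CPM in LD mice and 9.30 ± 2.52 CPM in SD mice, adjusted p = 0.215). Of 32 iron-sulfur cluster genes 0 rose and 0 fell, 3 were higher at an unadjusted p under 0.05, beside 5.92% of all genes, and the median log2 change was 0.08. The number risen was 1 without LD_405 or LD_442. Ciapin1, an electron donor of cytosolic cluster assembly, came closest: it averaged 34.8 ± 6.94 CPM in LD mice and 20.1 ± 2.53 CPM in SD mice without overlap (log2 change 0.77, adjusted p = 0.0506), and it passed in 8 of 24 alternatives. Nubp1, a cytosolic scaffold (29.6 ± 8.07 CPM in LD mice and 18.9 ± 4.57 CPM in SD mice, adjusted p = 0.164), Glrx5, a mitochondrial cluster carrier (123 ± 47.4 CPM in LD mice and 74.8 ± 6.47 CPM in SD mice, adjusted p = 0.191), and Iba57, a late mitochondrial assembly factor (16.6 ± 2.16 CPM in LD mice and 12.2 ± 4.36 CPM in SD mice, adjusted p = 0.305), came next.

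Per length of transcript, the order of the 10 genes was not the same on both diets. On the Longevity diet it ran from Trf, at 8713 ± 1780 CPM per kb (SD, n = 5), through Ftl1 at 2681 ± 372, Fth1 at 1086 ± 138, Hamp at 827 ± 772, Hamp2 at 195 ± 293, Tfr2 at 134 ± 9.19, Slc40a1 at 38.4 ± 13.1, Hfe at 9.64 ± 1.22 and Tfrc at 5.42 ± 4.02 to Bmp6 at 0.623 ± 0.371 CPM per kb. On the standard diet it ran from Trf at 8040 ± 798 CPM per kb (SD, n = 5) through Hamp2 at 6633 ± 4876, Hamp at 3522 ± 2793, Ftl1 at 2745 ± 573, Fth1 at 925 ± 114, Tfr2 at 143 ± 19.4, Slc40a1 at 53.4 ± 9.71, Hfe at 12.4 ± 1.70 and Tfrc at 2.27 ± 0.920 to Bmp6 at 1.05 ± 0.414 CPM per kb. Hamp2 exceeded Ftl1 per kb in 0 of 5 Longevity diet mice and in 4 of 5 standard diet mice, and Hamp exceeded Fth1 in 1 of 5 Longevity diet mice and in 4 of 5 standard diet mice. Ftl1 exceeded Hamp in 5 of 5 Longevity diet mice and in 3 of 5 standard diet mice. Within the standard diet alone, the highest value was 7.42 times the lowest for Hamp and 8.61 times for Hamp2, against 1.27 times for Trf and 1.30 times for Tfr2.

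Hepcidin mRNA was compared across the 10 mice with 8 genes in log2(CPM + 0.1). With Hamp2 the Pearson r was 0.81 (permutation p = 0.00148, adjusted p = 0.0118 over 8 genes) and Spearman's rho was 0.81 (p = 0.00743, adjusted p = 0.0408). Without LD_515 and SD_646, the mice farthest from the median of Hamp, r was 0.60. These genes may share reads. With Lcn2 r was 0.68 (p = 0.00779, adjusted p = 0.0156) and rho 0.78 (p = 0.0102, adjusted p = 0.0408), and r was 0.60 without both mice. For Id1, a SMAD target, r was 0.85 (p = 0.00485, adjusted p = 0.0137) with a rho of 0.64 (p = 0.0541, adjusted p = 0.144), and r was 0.46 without both mice. For the acute phase gene Saa1 r was 0.76 (p = 0.00512, adjusted p = 0.0137) with a rho of 0.58 (p = 0.0875, adjusted p = 0.175), and 0.48 without both. The relation with Bmp6 rested on LD_515: r was 0.87 (p = 0.0392, adjusted p = 0.0627) and rho 0.37 (p = 0.295, adjusted p = 0.394), and r was 0.12 without that mouse and 0.26 without both. Smad7 (r = 0.65, adjusted p = 0.0916), Tfr2 (r = 0.44, adjusted p = 0.275) and Socs3 (r = -0.26, adjusted p = 0.414) gave weaker relations. All of these points share the gap between the diets. For the deviations from the diet means, given as a description, r with Hamp was 0.83 for Bmp6, 0.82 for Id1, 0.80 for Hamp2, 0.67 for Saa1, 0.54 for Lcn2, 0.49 for Smad7, 0.34 for Tfr2 and -0.14 for Socs3. These values include LD_515. Without that mouse, and with the gap between the diets left in, r was 0.12, 0.60, 0.69, 0.58, 0.74, 0.195, -0.11 and -0.09 in the same order.

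The genes whose level over the 10 mice was most like that of Hamp, by Pearson r and as a description, were Lrrc24 (0.96), S1pr4 (0.95), Tbc1d10c (0.95), Cyp2u1 (0.94) and Sp110 (0.92). Without LD_515 their r with Hamp was 0.69, 0.88, 0.57, 0.15 and 0.55 in the same order. Among the most opposite were Yipf5 (-0.85), Tfrc (-0.80), Ube2f (-0.80) and Cyp4a31 (-0.79), and without LD_515 Tfrc had an r of -0.63.

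LD_515 was the extreme mouse for 6 of the 10 genes, lowest in 4, Hamp, Hamp2, Bmp6 and Tfr2, beside 11.5% of all genes, and highest in 2, Tfrc and Trf, beside 2.85%. Its summed erythroid markers stood at 559 CPM, within the range of 98.6 to 790 CPM on the standard diet and highest on the Longevity diet, where the others had 180 to 441.6 CPM. The summed level of its hepatocyte markers was the highest of all mice, 202130 CPM. Their mean log2 level in LD_515, 11.591, lay within the standard diet range of 11.479 to 11.795. The part of either cell type in the values of LD_515 was not tested.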

How the data were processed

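Liver RNA of 10 mice, 5 per diet, was sequenced. The deposited table holds CPM values per gene and mouse, to which the authors added 0.0001, as the values show; this was subtracted. STAR, Partek and mm39 are named in the submitters' processing notes without versions, and the quantifier, annotation and low-count filter are not given in the sources used here. The labels' protocol describes libraries with and without strand marks and does not say which were made, so overlapping antisense genes cannot be told apart. Low values rise in steps of 1 read, which gave depths of 24.7 to 45.7 M reads. By these steps 84.52% to 87.95% of values below 100 reads came out whole (within 0.1), short of the 95% needed to treat them as counts. Reads are not independent molecules, so floors of 3 reads cover counting error only.

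Diets were compared on log2(CPM + 0.1), for genes averaging 1 CPM or more over the 10 mice, with limma 3.58.1 (trend and robust, statmod 1.5.0, R 4.3.3), diet as the only term, two-sided, with the Benjamini-Hochberg adjustment at 0.05 over 13157 genes. Fold changes on this scale understate those of low genes. Single values were tested by exact permutation over 252 assignments of mice to diets, and correlations with 100000 permutations. The steps were tested on simulated data. Labels do not say whether mice shared cages or litters. Table coordinates are on mm39, with the end 1 below the printed stop; promoters come from RefSeq (GRCm38.p6), and transcript lengths and UTR hairpins from GENCODE M21 (GRCm38).

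The 10 genes and all lists were chosen with earlier results of these data known. Named are all 10 genes, up to 4 genes with the smallest p of each of 8 pathway lists, and the 5 genes most and least like Hamp, without predicted genes and pseudogenes. A result that this rule takes is not reported here. Alternatives were other pseudocounts, filters, scalings, weights, a covariate for the leading digit of the mouse number, and mice left out. Leaving out LD_405 with LD_515 was added after seeing the data.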

Additional observations from a re-analysis of the deposited data

Results flagged for a closer look

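The values of 5 mice were examined for a single mouse far from the others of its diet in 90 groups, of which chance would give about 4, and 3 were found. Hamp in LD_515, at 0.0385 CPM, lay below the other Longevity diet mice at 247 to 859 CPM. Bmp6 in the same mouse, at 0.231 CPM, lay below the others at 1.98 to 3.93 CPM. Ireb2 in LD_405, at 11.01 CPM, lay below the others at 36.8 to 46.7 CPM.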

How the results depend on the processing

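No paired analysis was possible because no mouse number occurs on both diets. The number of genes higher on the Longevity diet was 151 under median-of-ratios scaling and 151 under quantile normalization, 329 with 1 weight per library (lower 476), 28 with the leading digit as a covariate (lower 70), 15 without SD_403 and SD_646 (lower 18), 2 without LD_406 and LD_515 (lower 15), 51 without LD_405 and LD_515 (lower 77) and 202 at an adjusted p under 0.1 (lower 339). Leaving out 1 mouse gave 31 to 151 higher, the extremes without LD_406 and LD_405, and 58 to 227 lower, the extremes without SD_403 and LD_405. Of the 10 iron genes 1 was called, Hamp2, with a pseudocount of 1 CPM, without trend and robust steps, with library weights, with the covariate, without LD_405 and LD_515, and at 0.1, and 0 to 1 when 1 mouse was left out. The log2 change reversed for Tfr2 under median-of-ratios scaling (0.0092), for Trf without LD_406 and LD_515 (-0.0079) and for Ftl1 under median-of-ratios scaling (0.0885), quantile normalization (0.155), without SD_403 and SD_646 (0.0628) and over single mice left out (-0.160 to 0.0636). The Hamp2 to Hamp difference was -3.30 with a pseudocount of 1 CPM (exact p = 0.0238). It was -2.76 with a pseudocount of 0 CPM (exact p = 0.151). Over single mice left out it was -4.04 to -2.17, Tfrc to Fth1 0.468 to 1.24, and Ftl1 to Fth1 -0.355 to -0.158. The cause of these shifts was not tested. Depth limits Hamp and Hamp2 in LD_515, at about 1 and 11 reads.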
